A study of Homo sapiens with 5 samples.

Results

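The endoplasmic reticulum (ER) unfolded protein response was followed through 10 genes, XBP1, HERPUD1, SDF2L1, PDIA4, CALR, CANX, SEL1L, HYOU1, CRELD2 and MANF, picked by gene symbol. They are 10 of the 19716 genes with a read in at least 1 library, and all 10 had reads in all 5 libraries. The libraries were made from HEK293T, an established line from human embryonic kidney with the SV40 large T antigen, taken 48 h after transient transfection with 1 ug of plasmid. In 4 groups the cells received 5 guide RNAs (gRNAs) against the uPA promoter and a catalytically dead Cas9 (dCas9) joined to blue fluorescent protein (BFP) and to the catalytic domain of DNMT1, DNMT3A or DNMT3B, or, in dCas9-BFP-EGFP, to EGFP. The methyltransferase fusions are dCas9-BFP-DNMT3A, dCas9-BFP-DNMT1 and dCas9-BFP-DNMT3B, and a PGK promoter drives the fusions. The fifth group received pUC19, a plasmid that encodes neither a fusion nor a gRNA. DNMT3A and DNMT3B are the de novo DNA methyltransferases, and DNMT1 is the maintenance enzyme. By the labels all 5 groups were sorted for BFP, which the pUC19 plasmid does not encode. Each group is 1 library, so pUC19 differs from the fusions in the plasmid, the gRNAs and any effect of the sort together, and these cannot be told apart.

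The ER folds secreted and membrane proteins. When unfolded proteins accumulate there, the sensors IRE1 (ERN1), PERK (EIF2AK3) and ATF6 signal to the nucleus. IRE1 splices XBP1 mRNA so that it encodes an active transcription factor, ATF6 is cut by Golgi proteases to release its own transcription factor domain, and PERK phosphorylates eIF2alpha, which slows translation and favours ATF4. XBP1 and ATF6 raise chaperones, disulfide isomerases and the machinery of ER-associated degradation (ERAD). The reads were counted per gene, so spliced and unspliced XBP1 mRNA were not separated, and the values are RNA levels, not a measure of unfolded protein.

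The promoters of these genes are shown first, because most of them carry short elements through which ATF6 and XBP1 are known to act. In 300 bases around the RefSeq start site (250 before, 50 after), the ER stress response element, ERSE, was searched as CCAAT, 9 bases, CCACG. Its variant ERSE-II was searched as ATTGG, 1 base, CCACG, and the core of the unfolded protein response element, UPRE, as TGACGTGG, each on both strands. XBP1, CALR, CANX and CRELD2 held an ERSE, and HERPUD1, SDF2L1 and HYOU1 an ERSE-II, of which HYOU1 held 2. Of 35116 RefSeq promoter windows, 27 (0.0769%) held an ERSE, 19 (0.0541%) an ERSE-II and 256 (0.729%) the UPRE core. The only UPRE core among the 10 windows was in HYOU1, where it overlapped the distal ERSE-II. PDIA4, SEL1L and MANF held none of these exact letters. The matched stretches follow, 5′ to 3′ on the strand of the gene, with 10 bases to either side, the matched motif in capitals and GRCh37 (hg19) coordinates.
XBP1 (chr22:29196581-29196619, minus strand): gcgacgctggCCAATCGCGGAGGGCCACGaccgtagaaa
CALR (chr19:13049188-13049226, plus strand): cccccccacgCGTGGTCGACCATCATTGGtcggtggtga
CANX (chr5:179125769-179125807, plus strand): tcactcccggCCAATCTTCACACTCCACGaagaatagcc
CRELD2 (chr22:50312192-50312230, plus strand): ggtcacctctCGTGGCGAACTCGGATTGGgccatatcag
HERPUD1 (chr16:56965927-56965957, plus strand): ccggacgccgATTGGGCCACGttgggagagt
SDF2L1 (chr22:21996393-21996423, plus strand): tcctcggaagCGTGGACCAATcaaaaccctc
HYOU1 (chr11:118927975-118928114, minus strand): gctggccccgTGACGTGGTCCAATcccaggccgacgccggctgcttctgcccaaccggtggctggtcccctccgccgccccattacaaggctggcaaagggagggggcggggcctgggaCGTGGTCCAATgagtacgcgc

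The sequences are those of RefSeq (GRCh38.p14 table), placed on GRCh37 by an exact match, which was found for 9 of the 10 windows and not for MANF. The ERSE read in the direction of the gene in XBP1 and CANX, from 52 and 151 bases before the start site, and against it in CALR and CRELD2, from 225 and 80 bases before it. The ERSE-II began 117 bases before the start site of HERPUD1, 188 before that of SDF2L1, and 185 and 79 before that of HYOU1. In the CALR, CRELD2, SDF2L1 and HYOU1 windows the match therefore appears as its reverse complement, CGTGG before ATTGG or before CCAAT. Among the other pathway genes with a RefSeq window, described further on, HSPA5, HSP90B1 and ERO1B held an ERSE and none held an ERSE-II. DNAJC10, TXNDC11, UBE2J1, VCP and SEC62 held the UPRE core. A match describes the letters of a window and not a bound site. All 10 windows were rich in G and C, from 62.7% in CALR to 78.0% in HYOU1, with between 22 (SEL1L) and 44 (PDIA4 and HYOU1) CpG dinucleotides. DNA methylation was not analysed here.

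The libraries held 26.2 to 36.1 M reads (M, 1000000) assigned to genes, and pUC19 was the deepest. Levels are given as TPM, a transcript abundance corrected for gene length and depth, and each rests on the reads given with it. The 10 genes together took 0.365% of reads with dCas9-BFP-DNMT1, 0.230% with dCas9-BFP-DNMT3A, 0.224% with dCas9-BFP-DNMT3B, 0.358% with dCas9-BFP-EGFP and 0.318% with pUC19. The reads of DNMT1, DNMT3A and DNMT3B together, which include the transfected domains, took between 3.23% and 6.02% of the 3 methyltransferase libraries and 0.049% and 0.053% of the EGFP and pUC19 libraries. Of 10 genes known from HEK293 cells and embryonic kidney, all had reads in every library, with PAX2 between 6.1 and 7.7 TPM and VIM between 437 and 599 TPM. The neurofilament genes NEFL and NEFM of that list stood apart in pUC19, at 90.7 and 193 TPM, against 28.9 to 35.6 and 34.3 to 60.2 TPM with the fusions. PTPRC, PECAM1, ALB and DES, markers of blood, endothelium, liver and muscle, were each under 1 TPM in every library, and their summed level with LYZ was 8.26 to 11.2 TPM. LYZ made up most of that sum. Among genes with 10 to 20 reads per kb, the median share of the transcript covered was 49.5% to 50.4% in the methyltransferase libraries, and 43.6% and 44.2% with dCas9-BFP-EGFP and pUC19. No label gives a batch for that division.

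CALR was the highest and SEL1L or CRELD2 the lowest of the 10. In pUC19 the order of TPM was CALR, CANX, PDIA4, XBP1, MANF, HYOU1, HERPUD1, SDF2L1, CRELD2 and SEL1L, from 819 to 18.4. With 1 library per group no spread between replicates is known, so which neighbours in this order differ cannot be said. Over the 5 libraries the range of log2 levels had a median of 0.75 for the 10 genes, and of 0.58 for the 8331 genes with at least 10 TPM in every library. HERPUD1 had the widest range, 2.99-fold from the lowest to the highest library, and MANF the narrowest, 1.43-fold.

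**Figure D1:**
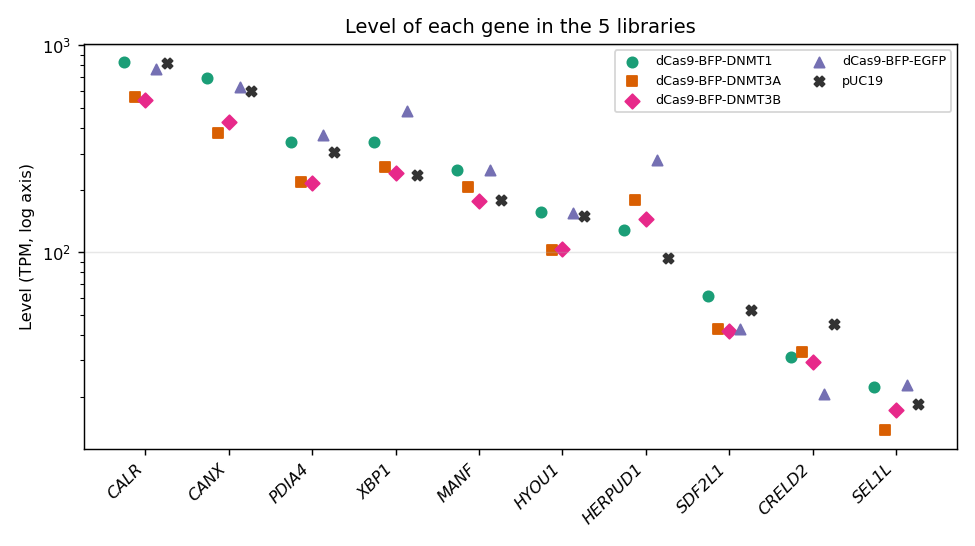
Level of each gene (TPM, log axis) in the 5 libraries, 1 point per library, with genes ordered by their level in pUC19. The dCas9-BFP-DNMT3A and dCas9-BFP-DNMT3B points lie below those of dCas9-BFP-DNMT1 and dCas9-BFP-EGFP for 8 genes, and HERPUD1 and CRELD2 overlap. For SDF2L1, which is among the 8, the gap to dCas9-BFP-EGFP is within counting error.

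XBP1 encodes the transcription factor that IRE1 activates by splicing, and its gene lies at chr22:29190543-29196585 on GRCh37. It measured 340.2 TPM (7665 reads) with dCas9-BFP-DNMT1, 259.6 TPM (6020) with dCas9-BFP-DNMT3A, 243 TPM (4976) with dCas9-BFP-DNMT3B, 482 TPM (9897) with dCas9-BFP-EGFP and 237 TPM (6892) with pUC19. The EGFP library was the highest and the DNMT3A, DNMT3B and pUC19 libraries were close together at the bottom. The ratio of dCas9-BFP-EGFP to pUC19 was 2.03-fold (log2 1.02, 95% interval 0.98 to 1.06), and that of dCas9-BFP-DNMT3B to pUC19 1.02-fold (log2 0.03, -0.02 to 0.09). Ratios were taken of TPM + 0.1, and these intervals cover counting error of the 2 libraries only. In pooled cells, a change in all cells and a change in some of them cannot be told apart.

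HERPUD1 and SEL1L serve ERAD. HERPUD1 is a stress-induced membrane protein that gathers the degradation complex, and SEL1L is the adaptor of the ubiquitin ligase HRD1 (SYVN1). HERPUD1 (chr16:56966054-56978776) measured 128 TPM (3076 reads), 179 TPM (4444) and 145 TPM (3164) with the DNMT1, DNMT3A and DNMT3B fusions, 279.9 TPM (6144) with dCas9-BFP-EGFP and 93.5 TPM (2897) with pUC19. All 4 fusion libraries were above pUC19, by 1.37-fold with dCas9-BFP-DNMT1, 1.92-fold with dCas9-BFP-DNMT3A, 1.55-fold with dCas9-BFP-DNMT3B and 2.99-fold with dCas9-BFP-EGFP (log2 1.58, 95% interval 1.52 to 1.65). SEL1L (chr14:81937891-82000197) measured 22.4 TPM (2204 reads) with dCas9-BFP-DNMT1, 13.8 TPM (1396) with dCas9-BFP-DNMT3A, 17.2 TPM (1541) with dCas9-BFP-DNMT3B, 22.9 TPM (2057) with dCas9-BFP-EGFP and 18.4 TPM (2327) with pUC19. The de novo fusions were at the bottom and pUC19 lay between them and the other fusions.

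CALR and CANX encode calreticulin and calnexin, lectins that hold newly made glycoproteins in the ER until they fold. CALR (chr19:13049392-13055303) measured 828 TPM (19768 reads), 562 TPM (13799) and 546 TPM (11872) with the DNMT1, DNMT3A and DNMT3B fusions, 765 TPM (16669) with dCas9-BFP-EGFP and 819 TPM (25186) with pUC19. CANX (chr5:179105629-179158642) measured 698 TPM (42816 reads), 379 TPM (23904) and 425 TPM (23721) with the same 3 fusions, 631 TPM (35294) with dCas9-BFP-EGFP and 604 TPM (47686) with pUC19. In both genes the DNMT3A and DNMT3B libraries were below the other 3. Against pUC19, CANX was 0.627-fold with dCas9-BFP-DNMT3A (log2 -0.67, 95% interval -0.70 to -0.65) and 0.704-fold with dCas9-BFP-DNMT3B, and CALR was 0.686-fold and 0.667-fold.

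PDIA4, HYOU1 and SDF2L1 act in the ER lumen. PDIA4 is a disulfide isomerase, HYOU1 a large relative of HSP70 that exchanges nucleotide on BiP (HSPA5), and SDF2L1 a partner of BiP and its J protein DNAJB11. PDIA4 (chr7:148700154-148725754) measured 339.5 TPM (12485 reads), 219 TPM (8276) and 217 TPM (7244) with the DNMT1, DNMT3A and DNMT3B fusions, 368 TPM (12354) with dCas9-BFP-EGFP and 305 TPM (14444) with pUC19. HYOU1 (chr11:118914899-118927938) measured 157 TPM (8985 reads), 103 TPM (6042) and 104 TPM (5425) with these 3 fusions, 155 TPM (8073) with dCas9-BFP-EGFP and 149 TPM (11004) with pUC19. Here too the de novo libraries were the lowest, and they differed from each other by 1.01-fold in PDIA4 and 0.985-fold in HYOU1. SDF2L1 (chr22:21996591-21998588) rested on fewer reads, with 61.8 TPM (670 reads), 42.5 TPM (474) and 41.6 TPM (410) with the DNMT1, DNMT3A and DNMT3B fusions, 42.8 TPM (423) with dCas9-BFP-EGFP and 52.8 TPM (738) with pUC19. The DNMT1 library stood above the rest, and the EGFP library lay with the de novo fusions within counting error.

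CRELD2 and MANF encode small ER-resident proteins that are secreted under ER stress, MANF being a factor that protects neurons. CRELD2 (chr22:50311815-50321188) measured 31.1 TPM (607 reads), 32.9 TPM (660) and 29.5 TPM (524) with the DNMT1, DNMT3A and DNMT3B fusions, 20.7 TPM (369) with dCas9-BFP-EGFP and 45.2 TPM (1136) with pUC19. It had the reverse order of HERPUD1 at its ends, highest in pUC19 and lowest with dCas9-BFP-EGFP, 0.460-fold of pUC19 (log2 -1.12, 95% interval -1.30 to -0.95). MANF (chr3:51422722-51426828) measured 251 TPM (3011 reads), 207 TPM (2551) and 176 TPM (1920) with the DNMT1, DNMT3A and DNMT3B fusions, 251 TPM (2743) with dCas9-BFP-EGFP and 178 TPM (2753) with pUC19. In TPM the DNMT1 and EGFP libraries were equal within counting error, 1.00-fold, and pUC19 lay with dCas9-BFP-DNMT3B.

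Each fusion was compared with pUC19 to ask which genes changed when a fusion and uPA gRNAs were expressed. With 1 library a side no test of the condition is possible, so a gene was called only by size, at 2-fold or more with at least 10 reads in either library. With dCas9-BFP-EGFP, 3 of the 10 genes were past 2-fold, XBP1 and HERPUD1 higher and CRELD2 lower, where 9.70% of 15959 genes were. With the DNMT1, DNMT3A and DNMT3B fusions 0 of 10 were, where 9.29%, 14.2% and 13.7% of all genes were past that size. Counting intervals of XBP1 (log2 0.98 to 1.06) and CRELD2 (-1.30 to -0.95) with dCas9-BFP-EGFP reached both sides of 2-fold. So did that of HERPUD1 with dCas9-BFP-DNMT3A (0.87 to 1.01), which was not called. The median log2 ratio of the 10 genes was 0.22 with dCas9-BFP-DNMT1, -0.43 with dCas9-BFP-DNMT3A, -0.42 with dCas9-BFP-DNMT3B and 0.17 with dCas9-BFP-EGFP. Over all genes with enough reads it was -0.14, -0.04, -0.04 and -0.01. After scaling by trimmed mean of M values (TMM) the median of all genes with dCas9-BFP-DNMT1 moved to -0.02 and that of the 10 genes to 0.34. In TPM, 9 genes were higher and 1 lower with dCas9-BFP-DNMT1 than with pUC19, 3 and 7 with dCas9-BFP-DNMT3A, 2 and 8 with dCas9-BFP-DNMT3B, and 7 and 3 with dCas9-BFP-EGFP. These 4 comparisons share the pUC19 library, so a value that is high or low in it enters all of them.

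**Figure D2:**
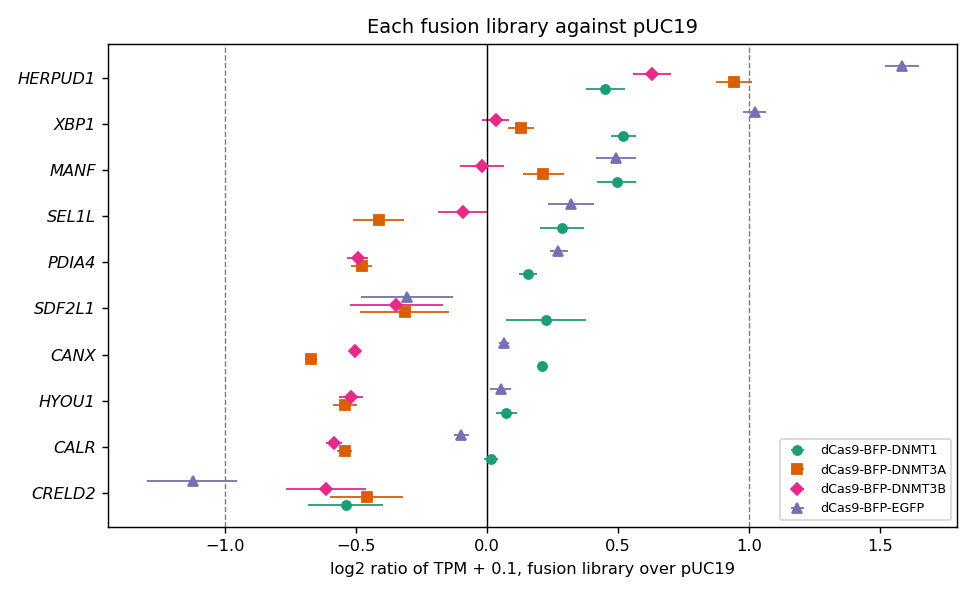
log2 ratio of TPM + 0.1 of each fusion library over pUC19 for the 10 genes, with 95% counting intervals (too narrow to see for CANX) and dashed lines at 2-fold. HERPUD1 lies to the right of 0 and CRELD2 to the left of 0 with all 4 fusions, and the DNMT3A and DNMT3B points of PDIA4, CANX, HYOU1 and CALR lie near -0.5.

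The 4 fusion libraries were then set together against pUC19 with edgeR's quasi-likelihood test, in which the spread comes from the fusions alone, which are different constructs and not replicates. At an adjusted p under 0.05 (Benjamini-Hochberg over 16001 genes), 0 of the 10 genes were called in either direction, as against 0.0937% of all genes higher and 0.644% lower. At an unadjusted p under 0.05 there was 1 of the 10, HERPUD1, and 2879 of all genes, and DESeq2 also called 0 of the 10. HERPUD1 had a log2 fold change of 1.01 (SE 0.38, adjusted p = 0.208 by edgeR), XBP1 of 0.53 (SE 0.35, adjusted p = 0.455) and CRELD2 of -0.60 (SE 0.28, adjusted p = 0.296). In TPM the 4 fusions were all above pUC19 for 2 of the 10 genes, XBP1 and HERPUD1, where 23.1% of all genes were. They were all below it for 1, CRELD2, where 32.1% were.

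The second question was whether the fusions that carry a de novo methyltransferase domain differed from those that do not. The DNMT3A and DNMT3B libraries were compared with the DNMT1 and EGFP libraries by the same edgeR test, over 15332 genes and without pUC19. Here too the libraries of a group are different constructs and not replicates. The spread is that between constructs, so an adjusted p is not a replicated test of the de novo domain. Of the 10 genes 6 were lower with the de novo fusions and 0 were higher at an adjusted p under 0.05. Over all genes 4.15% were lower and 6.90% higher. The 6 genes were CANX, PDIA4, XBP1, HYOU1, SEL1L and CALR.

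CANX was lower by 0.79 on the log2 scale (SE 0.15, adjusted p = 0.0137 by edgeR). Its mean was 402 TPM with the de novo fusions and 665 TPM with dCas9-BFP-DNMT1 and dCas9-BFP-EGFP. PDIA4 was lower by 0.76 (SE 0.11, adjusted p = 0.00747), with means of 218 and 354 TPM. XBP1 was lower by 0.75 (SE 0.14, adjusted p = 0.0143), with means of 251 and 411 TPM. In pUC19, CANX and PDIA4 measured 604 and 305 TPM, above their de novo means. XBP1 measured 237 TPM there, below its de novo mean. The changes of the other 3 were slightly smaller and lay between -0.65 and -0.58. HYOU1 had a log2 fold change of -0.65 (SE 0.12, adjusted p = 0.0119), SEL1L of -0.60 (SE 0.15, adjusted p = 0.0325) and CALR of -0.58 (SE 0.13, adjusted p = 0.0239). The median over the 10 genes was -0.59, and over all genes -0.01.

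The other 4 genes did not pass. MANF had a log2 fold change of -0.45 (SE 0.14, adjusted p = 0.0652 by edgeR), SDF2L1 of -0.38 (SE 0.22, adjusted p = 0.271), HERPUD1 of -0.36 (SE 0.26, adjusted p = 0.397) and CRELD2 of 0.20 (SE 0.22, adjusted p = 0.599). In TPM both de novo libraries were below both others for 8 of the 10 genes, the 6 named above with SDF2L1 and MANF, where 24.2% of all genes were. For 0 of the 10 were they above both, where 33.2% were. For HERPUD1 the DNMT1 library was below both de novo libraries and the EGFP library above both, and for CRELD2 the DNMT1 library lay between them.

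The calls of this comparison rest on both de novo libraries being in it. Without dCas9-BFP-DNMT3A or without dCas9-BFP-DNMT3B the calls were lost, for the 10 genes and for nearly all genes of the series. The lone de novo library is then assumed to vary like the other 2. All 6 genes kept a negative log2 fold change there, between -0.86 and -0.46. Without dCas9-BFP-DNMT1 8 genes were lower and 1 higher (CRELD2), and without dCas9-BFP-EGFP 8 were lower. The calls over all genes also rose in these fits, to 9.80% lower and 12.7% higher without dCas9-BFP-DNMT1 and to 10.4% and 14.3% without dCas9-BFP-EGFP. The fit without dCas9-BFP-EGFP holds only the 3 libraries with a higher share of covered transcript and a methyltransferase domain. DESeq2 called 7 genes lower, the added gene being MANF, and 5.94% of all genes lower.

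**Figure D3:**
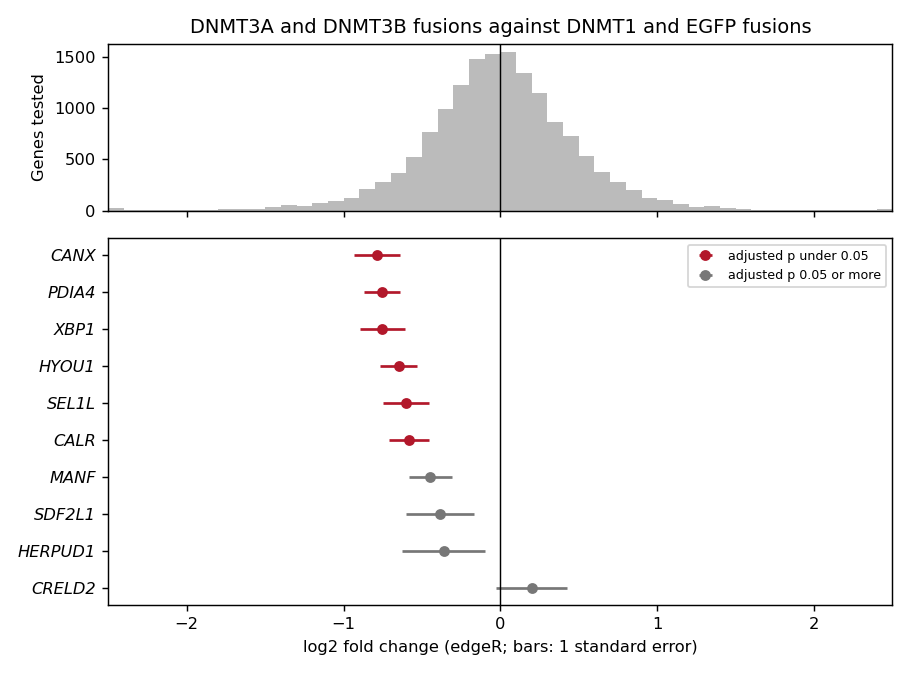
Top, number of the 15332 tested genes by log2 fold change in the comparison of the DNMT3A and DNMT3B fusions with the DNMT1 and EGFP fusions (the end bars hold all values beyond 2.4 in size). Bottom, the 10 genes with 1 standard error, in red where the adjusted p was under 0.05. CANX, PDIA4, XBP1, HYOU1, SEL1L and CALR lie between -0.79 and -0.58, and only CRELD2 lies to the right of 0.

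The de novo fusions were also close to each other. The ratio of dCas9-BFP-DNMT3A to dCas9-BFP-DNMT3B lay between 0.802-fold for SEL1L and 1.24-fold for HERPUD1 over the 10 genes. The ratio of dCas9-BFP-DNMT1 to dCas9-BFP-EGFP lay between 0.457-fold for HERPUD1 (log2 -1.13, 95% interval -1.19 to -1.07) and a log2 ratio of 0.58 for CRELD2 (0.40 to 0.78). For HYOU1, SEL1L and MANF the interval of that ratio included no difference in TPM. Over all genes the median log2 ratio of these 2 libraries was -0.13 in TPM. The intervals of HYOU1, SEL1L and MANF lay above that median, so their equality depends on the scaling.

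The rest of the pathway was read from gene lists with 58 ER genes and 8 genes of the PERK branch. Of the 58 ER genes 16 were lower and 0 higher with the de novo fusions at an adjusted p under 0.05 by edgeR, with a median log2 fold change of -0.34, beside 4.15% and 6.90% of all genes. Without dCas9-BFP-DNMT3A or without dCas9-BFP-DNMT3B the calls among the 58 were lost, like nearly all calls of the series. Without dCas9-BFP-DNMT1 25 were lower and without dCas9-BFP-EGFP 31, each with 1 higher, beside the rise in calls over all genes given above. In TPM both de novo libraries lay below both others for 36 of the 58 and above both for 3, where 24.2% and 33.2% of all genes did.

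Of the 4 sensors, ATF6 (log2 fold change -0.46, adjusted p = 0.0467 by edgeR) and ATF6B (-0.43, adjusted p = 0.0481) were lower with the de novo fusions, and neither passed without the filter on low counts, where 12 of the 58 ER genes and 1.78% of all genes were lower. ATF6B measured 59.6 TPM with pUC19, below its 73.0 and 77.3 TPM with the DNMT3A and DNMT3B fusions. ATF6 measured 36.6 TPM with pUC19, above its 26.5 and 27.3 TPM with them. ERN1, which encodes IRE1, measured 8.7, 10.8, 12.1, 12.8 and 5.4 TPM in the order DNMT1, DNMT3A, DNMT3B, EGFP and pUC19, and EIF2AK3, which encodes PERK, 15.9, 13.2, 13.4, 12.1 and 11.4 TPM. Neither passed the test between the fusions, with log2 fold changes of 0.04 (adjusted p = 0.904) and -0.13 (adjusted p = 0.670). ERN1 was past 2-fold against pUC19 with dCas9-BFP-DNMT3B and dCas9-BFP-EGFP. The proteases MBTPS1 and MBTPS2, which cut ATF6, did not pass either test, and 1 of them was at an unadjusted p under 0.05 between the fusions.

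Among 9 chaperones of the HSP70, HSP90 and J protein families of the ER, 3 were lower with the de novo fusions. Without the filter on low counts 2 of the 9 were, beside 1.78% of all genes. HSPA5, which encodes BiP, the chaperone that holds the sensors inactive, measured 422 and 439.8 TPM with the DNMT1 and EGFP fusions, 285 and 248 TPM with the DNMT3A and DNMT3B fusions and 296 TPM with pUC19. It was lower by 0.75 on the log2 scale with the de novo fusions (SE 0.13, adjusted p = 0.00994 by edgeR), and pUC19 lay just above the de novo libraries. HSP90B1, which encodes GRP94, measured 503 and 531 TPM against 372 and 358 TPM, and 579 TPM with pUC19 (-0.56, adjusted p = 0.0195). DNAJC10, a J protein that also reduces disulfides, was the third (-0.48, adjusted p = 0.0408). DNAJB9, a target of spliced XBP1, measured 9.4, 7.5, 6.1, 11.7 and 6.9 TPM in the order above and did not pass (-0.69, adjusted p = 0.0582).

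Of 10 disulfide isomerases and oxidases, 2 were lower, P4HB (-0.63, adjusted p = 0.0172 by edgeR) and PDIA6 (-0.55, adjusted p = 0.0264), and 0 higher. P4HB measured 514 TPM with pUC19, between its 518 and 474 TPM with the DNMT3A and DNMT3B fusions. PDIA6 measured 252 TPM with pUC19, above its 181 and 172 TPM with them. Of 7 genes of glycan and lectin quality control, 3 were lower, the folding sensor UGGT1 (-0.61, adjusted p = 0.0158), the glucosidase subunit GANAB (-0.55, adjusted p = 0.0207) and the lectin MLEC (-0.70, adjusted p = 0.0111). Of 14 ERAD genes, 2 were lower, EDEM1, which helps release mannose-trimmed glycoproteins for degradation (-0.92, adjusted p = 0.00729), and the lectin OS9 (-0.44, adjusted p = 0.0467). Most ERAD genes did not pass, and without the filter on low counts 1 of the 14 was lower, beside 1.78% of all genes.

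Of 12 genes of the translocon and its signal peptide handling, 4 were lower with the de novo fusions. SSR3, a subunit of the translocon-associated complex, measured 198 and 201 TPM with the DNMT1 and EGFP fusions, 93.3 and 87.9 TPM with the DNMT3A and DNMT3B fusions and 196 TPM with pUC19 (log2 fold change -1.19, SE 0.12, adjusted p = 0.00235 by edgeR). SPCS3, of the signal peptidase (-0.92, adjusted p = 0.0075), SSR1 (-0.76, adjusted p = 0.00797) and SEC61A1, the channel itself (-0.49, adjusted p = 0.0288), were the others. SEC61A1 measured 228 TPM with pUC19, below its 275 and 267 TPM with the DNMT3A and DNMT3B fusions. For SSR3, SPCS3 and SSR1 pUC19 lay above both de novo libraries. LMAN1, a cargo lectin, was not among the calls between the fusions (-0.20, adjusted p = 0.440) and was past 2-fold lower than pUC19 with 3 fusions, at 39.3 to 48.9 TPM with the 4 fusions and 90.1 TPM with pUC19.

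The PERK branch and integrated stress response list divided. SESN2, which restrains mTORC1, and the transcription factor ATF3 were higher with the de novo fusions, by 0.87 (adjusted p = 0.0102 by edgeR) and 0.51 (adjusted p = 0.0372) on the log2 scale. DDIT3, which encodes CHOP (-0.93, adjusted p = 0.0111), CHAC1, which degrades glutathione (-0.85, adjusted p = 0.0195) and the asparagine synthetase ASNS (-0.94, adjusted p = 0.00747) were lower. Without the filter on low counts 1 of the 8 was higher and 3 were lower, where 3.65% and 1.78% of all genes were. Without dCas9-BFP-DNMT3A or without dCas9-BFP-DNMT3B the calls among the 8 were lost in both directions, like nearly all calls of the series. DDIT3 measured 78.7, 54.4, 49.1, 113 and 29.9 TPM in the order DNMT1, DNMT3A, DNMT3B, EGFP and pUC19, so its lowest value was in pUC19. CHAC1 was also lowest in pUC19, at 42.0 TPM, and ASNS was lowest with dCas9-BFP-DNMT3B, at 391 TPM. ATF4 RNA measured 1251, 1511, 1474, 1635 and 1210.3 TPM in that order and its log2 fold change between the fusions was 0.002 (adjusted p = 0.995).

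Against pUC19 this list stood highest of the ER and PERK lists. Its median log2 ratio was 1.03, 1.01, 1.00 and 1.26 with the DNMT1, DNMT3A, DNMT3B and EGFP fusions, and 4, 4, 4 and 5 of its 8 genes were past 2-fold higher, where 2.90%, 6.22%, 6.48% and 4.41% of all genes were. TRIB3, an inhibitor of kinase signalling, measured 116, 86.9, 84.5, 96.8 and 36.0 TPM, and PPP1R15A, which restores translation through eIF2alpha dephosphorylation, 60.0, 78.7, 70.5, 47.0 and 21.5 TPM, in the same order. Both were past 2-fold with all 4 fusions. With the 4 fusions together against pUC19, edgeR called 0 of the 8 (TRIB3 adjusted p = 0.0525, PPP1R15A adjusted p = 0.0566), 6 were at an unadjusted p under 0.05, and DESeq2 called 6 higher. In that comparison edgeR called 0 of the 58 ER genes, with 12 at an unadjusted p under 0.05, and DESeq2 called 2 higher and 2 lower. Over all genes DESeq2 called 3.78% higher and 3.32% lower.

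The cytosolic heat shock genes, which answer to HSF1 and unfolded protein outside the ER, were read beside them. With dCas9-BFP-DNMT1 6 of 8 were past 2-fold higher than pUC19, where 2.90% of all genes were, with a median log2 ratio of 1.29, and with each of the other fusions 1 was, DNAJB1. DNAJB1, a J protein, measured 499.8, 265, 321, 188 and 92.2 TPM in the order DNMT1, DNMT3A, DNMT3B, EGFP and pUC19. HSPA1B stood at 1961 TPM with dCas9-BFP-DNMT1 and between 130 and 251.5 TPM in the other 4 libraries. HSPA1A and HSPA1B are near-identical copies. Per the study only unique reads were kept, so reads shared by the copies would be left out of both. Between the de novo fusions and the others edgeR called 0 of the 8, with 3 at an unadjusted p under 0.05, and DESeq2 also called 0. Over all 15332 genes 4419 were at an unadjusted p under 0.05. Calls among the 8 appeared only with 1 library left out, as lower without dCas9-BFP-EGFP and as higher without dCas9-BFP-DNMT1. Each such fit leaves 1 library in a group, and calls over all genes rose there too.

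Finally, genes outside all lists were ranked by how closely their profile followed the mean centred log2 level of the 10 genes, which was 0.20 with dCas9-BFP-DNMT1, -0.20 with dCas9-BFP-DNMT3A, -0.24 with dCas9-BFP-DNMT3B, 0.24 with dCas9-BFP-EGFP and 0.01 with pUC19. Among 1507 genes with at least 5 TPM in every library and a range of at least 2-fold, the 5 most alike were EIF4EBP2, CTNNBIP1, SCARNA12, COL2A1 and PCK2, with Pearson r from 0.96 to 0.97 over 5 libraries. EIF4EBP2, a repressor of cap-dependent translation, measured 91.7, 45.4, 47.8, 100.1 and 82.2 TPM in the order DNMT1, DNMT3A, DNMT3B, EGFP and pUC19. PCK2, the mitochondrial phosphoenolpyruvate carboxykinase, measured 86.8, 52.5, 44.9, 127 and 76.8 TPM. With 5 libraries and so many candidates, a high r is a description only.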

How the data were processed

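Poly(A) RNA of 5 HEK293T libraries was read on the Ion Proton platform. Per the study, the authors discarded low-quality, adaptor and short (under 30 nt) reads, aligned the rest to hg19 RefSeq transcripts with tmap (version not given in the sources used here; up to 3 mismatches) and kept unique reads. The deposited tables give raw read counts, TPM and the percent of each transcript covered, per gene; genes missing from a table were set to 0. Here, ratios were taken of TPM + 0.1, with 95% exact conditional intervals of the reads. Fits used the counts as deposited with edgeR 4.0.16 (TMM, filterByExpr, quasi-likelihood) and DESeq2 1.42.0 as an alternative. Of these, only edgeR was self-tested, on simulated counts with less spread between libraries than these data. That run gives no error rate for the fits here. Depth was 26.2 to 36.1 M reads (M, 1000000), and intervals cover counting error only. The labels do not say that libraries came from separate cultures, so p-values measure only the spread between these samples. The members, lists and tests were chosen with earlier results of these data known. Named were all 10 members, 9 set pathway genes, list genes past 2-fold in at least 2 fusions or past either edgeR threshold, and the 5 most alike. HSPA1A, HSPA1B, MBTPS1, MBTPS2, ERO1B, TXNDC11, UBE2J1, VCP, SEC62 and the marker genes fall outside this rule and were named after their values were seen. The self-test is not quoted. Of 90 list genes, 89 were matched by symbol; CD3E was not. Gene positions are GENCODE v44 on GRCh37. Alternatives changed the pseudocount, scaling, read minimum, fold threshold, depth, tool and libraries.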

Additional observations from a re-analysis of the deposited data

Results flagged for a closer look

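For 6 of the 10 genes the libraries with a de novo methyltransferase domain differed from the other fusion libraries by the edgeR test between them. In that test different constructs stood in as replicates, because no construct was replicated. Its adjusted p-values measure the spread between these libraries and are not a replicated test of the domain. The log2 fold changes of dCas9-BFP-DNMT3A and dCas9-BFP-DNMT3B against dCas9-BFP-DNMT1 and dCas9-BFP-EGFP were -0.75 for XBP1, -0.76 for PDIA4, -0.58 for CALR, -0.79 for CANX, -0.60 for SEL1L and -0.65 for HYOU1. Over all genes 4.15% were lower and 6.90% higher in that test. In both de novo libraries each of the 6 was below both other fusions. Against pUC19 they divided: CANX, PDIA4, CALR, HYOU1 and SEL1L were higher in pUC19 than in both de novo libraries. For SEL1L the difference from dCas9-BFP-DNMT3B was within counting error. XBP1 was lower in pUC19 than in both. The calls were lost when either de novo library was left out. SEL1L also missed the threshold without the filter on low counts. The share of covered transcript and the reads taken by the methyltransferase genes also differed between dCas9-BFP-EGFP and the other 3 fusions. Their part in the result was not tested.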

How the results depend on the processing

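No paired analysis was possible because each group has 1 library. With a threshold of 1.5-fold in place of 2-fold, 2 of the 10 genes were past it with dCas9-BFP-DNMT3A and 2 with dCas9-BFP-DNMT3B, where 0 were at 2-fold and 34.9% and 34.2% of all genes were past 1.5-fold. Against pUC19 the 4 fusions gave 118 genes past the threshold by edgeR, 992 by DESeq2, 252 without a filter on low counts, and 65 to 95 with 1 fusion library left out. No alternative called any of the 10 genes there. Between the de novo and other fusions 1694 genes passed by edgeR, 1052 without the filter, and 18 (without dCas9-BFP-DNMT3A) to 3850 (without dCas9-BFP-EGFP) with 1 library left out; of the 10 genes, 0 to 9 passed. The sign changed in 6 log2 fold changes with 1 library left out, none of which passed. Against pUC19, SEL1L ranged from -0.019 (without dCas9-BFP-DNMT1) to 0.244, PDIA4 from -0.175 to 0.077 (above 0 without dCas9-BFP-DNMT3A and, at 0.07, without dCas9-BFP-DNMT3B) and CANX from -0.324 to 0.02 (without dCas9-BFP-DNMT3A). Between the fusions, HERPUD1 ranged from -0.773 (without dCas9-BFP-DNMT1, where it passed, edgeR adjusted p = 0.000269) to 0.223 (without dCas9-BFP-EGFP) and CRELD2 from -0.115 (without dCas9-BFP-EGFP) to 0.605 (without dCas9-BFP-DNMT1, adjusted p = 0.0205). Without the filter SEL1L missed the threshold (-0.59, adjusted p = 0.0561). The causes were not tested. Of 320 log2 ratios against pUC19 under alternatives, 306 stayed within their counting interval and 14 moved past it. The alternatives for the read minimum, a minimum level in both libraries, the fold threshold and an added read test leave the ratio itself unchanged. Their values could not move and are among the 306, so that count does not measure stability. Among the ratios 1 changed sign, MANF with dCas9-BFP-DNMT3B, from -0.018 to 0.03 without the methyltransferase reads. Depth limits SDF2L1 and CRELD2 most.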
